A study of Mus musculus with 12 samples.

Results

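Platelet genes were followed through 9 genes, Ppbp, Pf4, Itga2b, Itgb3, Gp1ba, Gp1bb, Gp9, Gp6 and Treml1, found by their symbols among the 55487 genes of the deposited tables. RNA-seq had been performed on cutaneous wounds of male C57BL/6JNarl mice, which were 6 weeks old when full-thickness punch wounds of 6 mm were made in the skin of the back, 2 per mouse. The P-F127 groups (sham) received the gel Pluronic F127 alone every day, and the CAP groups received 10 µM capsaicin, the pungent compound of chili peppers and agonist of the ion channel TRPV1, in the same gel. Wounds with the surrounding tissue were taken at Day 3 and Day 6, which gave 4 groups of 3 libraries: P-F127 Day 3, CAP Day 3, P-F127 Day 6 and CAP Day 6. No unwounded or gel-free skin is among the 12 libraries, so every group carries the wound, the gel and the dressing. The sources used here do not say whether libraries come from the same mouse, so n counts libraries and p values measure the spread between them.

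Platelets are cell fragments shed by megakaryocytes of the bone marrow. They carry RNA from their parent cell but have no nucleus. At a wound they are the first cells to arrive, where they bind exposed matrix and fibrin and release the contents of their α-granules. Among those contents are the chemokines encoded by Ppbp, whose product is cut to the neutrophil attractant NAP-2 (CXCL7), and by Pf4, which encodes platelet factor 4 (CXCL4). Itga2b and Itgb3 encode the fibrinogen receptor, integrin αIIbβ3. Gp1ba, Gp1bb and Gp9 encode subunits of the receptor for von Willebrand factor, and Gp6 encodes the collagen receptor GPVI. Treml1 encodes TLT-1, a receptor stored in α-granules. Some of these genes are also used outside the platelet lineage: β3 pairs with αV on endothelial cells and macrophages, and Pf4 is transcribed in mouse tissue macrophages. Each level below is that of the wound tissue as a whole, where fewer cells of a type and less RNA per cell cannot be told apart.

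The 9 genes did not share one level. Values are in TPM, the abundance of a gene's transcripts scaled to the same total in every library, a unit that takes account of transcript length, so that genes can be set beside each other. Over the 12 libraries Pf4 had a mean of 261 TPM, Ppbp 16.3 TPM, Itgb3 14.0 TPM, Itga2b 7.80 TPM and Treml1 1.38 TPM. The mean was 0.343 TPM for Gp1bb, 0.252 TPM for Gp1ba, 0.223 TPM for Gp9 and 0.0101 TPM for Gp6. The genes of the von Willebrand factor receptor and of GPVI were thus low: Gp1ba was under 0.3 TPM in 7 libraries, Gp1bb in 6, Gp9 in 8 and Gp6 in 12. Those of the fibrinogen receptor were higher, with Itga2b between 5.32 and 10.4 TPM and Itgb3 between 6.83 and 20.3 TPM. Among other platelet surface receptors, Gp5, the remaining subunit of the von Willebrand factor receptor, was as low, between 0.0418 and 0.324 TPM. Clec1b, which encodes the podoplanin receptor CLEC-2, lay between 0 and 0.796 TPM. Mpig6b, another platelet surface receptor, was higher, between 1.04 and 3.64 TPM. As they did not share one level, the genes are called by their own names below. Whether their RNA came from platelets was not tested.

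**Figure D1:**
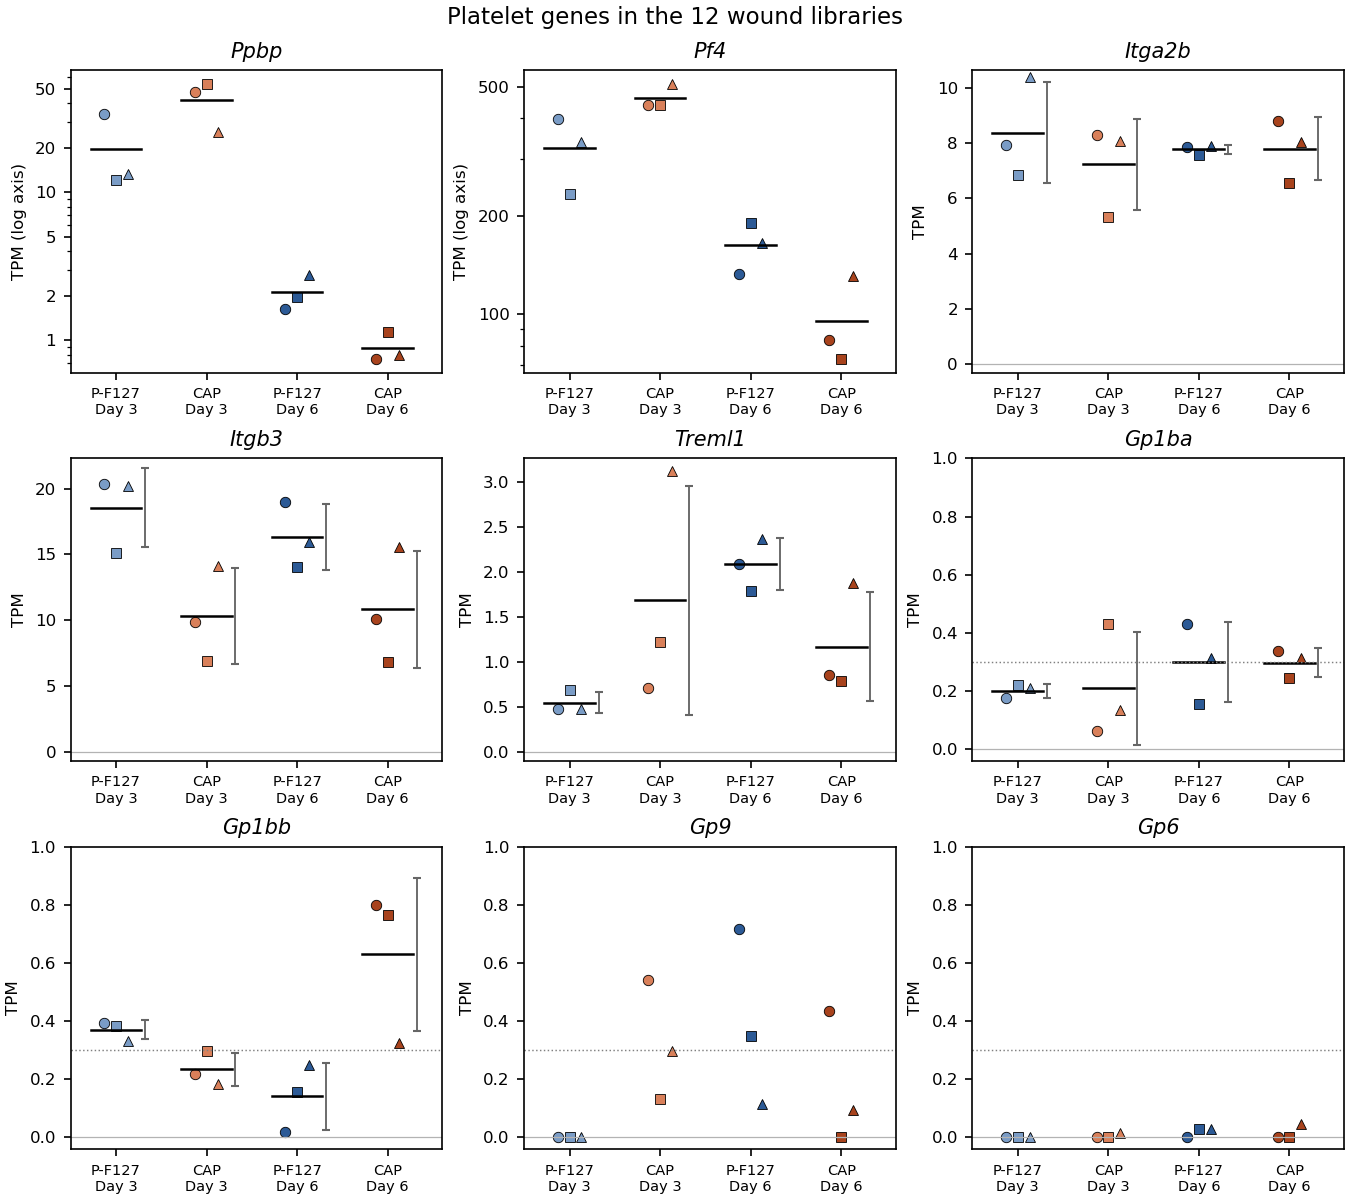
TPM of each of the 9 platelet genes in the 12 wound libraries, with 1 panel per gene and the 4 groups along the x axis; circles, squares and triangles are replicates 1, 2 and 3. Horizontal lines are group means and grey bars the SD (n = 3, drawn on the linear axes only; Gp9 and Gp6, listed at 0 in several libraries, have points only), and dotted lines mark 0.3 TPM. Ppbp and Pf4, on log axes, are highest in CAP Day 3 and lowest in CAP Day 6, while Itga2b lies between 5.32 and 10.4 TPM in every library.

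The libraries were alike in the number of genes found and in their correlation, but not in their share of skin genes. Each had between 18533 and 19325 genes at 0.3 TPM or more, and the correlation of log2 values was between 0.956 and 0.975 within groups and between 0.934 and 0.975 across groups. A list of 7 skin genes, keratins and collagens, summed to between 62012 and 103963 TPM in CAP Day 6. In P-F127 Day 6 the sum was between 45478 and 48397 TPM. For CAP at Day 6, 4 of their log2 differences were positive and 3 negative. As TPM is scaled to the same total, a larger share for some genes leaves less for the rest. Replicate 2 of CAP Day 6 stood apart. Its 10 most abundant genes held 14.1% of the TPM, the highest share of the 12 libraries, its Krt10 (a keratin of the upper epidermis) was at 40801 TPM against 16989 and 19544 TPM in the other libraries of its group, and its summed endothelial markers were the lowest of all. In P-F127 Day 6 Krt10 was at 7432, 7490 and 8321 TPM. Without replicate 2 of CAP Day 6 it was still higher in CAP at Day 6, by 1.24 on the log2 scale. Called values that rest on replicate 2 of CAP Day 6 are also given without it.

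Ppbp and Pf4 are neighbouring genes. On mm10 (GRCm38), Ppbp lies on the plus strand of chromosome 5 at 90768518 to 90770063 and Pf4 on the same strand at 90772435 to 90773383, with 2371 bases between them. The windows from 250 bases before to 50 bases after their starts, taken from RefSeq on GRCm38.p6, are shown because the levels of these adjacent genes moved in the same direction in every comparison of days or treatments at 1 day. The window of Itga2b on the minus strand of chromosome 11, a gene that passed the test in no comparison, is set beside them. Capitals mark GATAA, one form of the sites that GATA factors bind, and AGGAAG, one form of those of ETS factors, on either strand (TTATC and CTTCCT on the reverse strand).
Ppbp, chr5:90768268-90768567, plus strand: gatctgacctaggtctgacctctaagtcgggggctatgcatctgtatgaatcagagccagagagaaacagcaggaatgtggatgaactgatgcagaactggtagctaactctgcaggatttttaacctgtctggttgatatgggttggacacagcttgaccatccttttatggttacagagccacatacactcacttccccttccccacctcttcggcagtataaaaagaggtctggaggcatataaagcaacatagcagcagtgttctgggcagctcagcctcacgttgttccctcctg
Pf4, chr5:90772185-90772484, plus strand: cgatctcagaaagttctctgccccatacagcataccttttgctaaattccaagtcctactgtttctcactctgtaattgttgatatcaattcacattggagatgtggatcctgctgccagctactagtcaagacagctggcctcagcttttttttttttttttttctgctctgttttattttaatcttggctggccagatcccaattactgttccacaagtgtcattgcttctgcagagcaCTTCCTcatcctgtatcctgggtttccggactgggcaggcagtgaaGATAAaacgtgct
Itga2b, chr11:102469834-102470133, minus strand: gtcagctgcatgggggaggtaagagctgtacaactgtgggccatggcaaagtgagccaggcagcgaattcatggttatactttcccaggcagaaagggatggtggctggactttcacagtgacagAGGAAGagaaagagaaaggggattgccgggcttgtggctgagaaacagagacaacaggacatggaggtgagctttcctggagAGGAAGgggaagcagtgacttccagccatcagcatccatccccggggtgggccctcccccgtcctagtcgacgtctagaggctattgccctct
The Ppbp window held neither of these strings, and shorter or other forms of such sites were not searched in any window. The Pf4 window held CTTCCT starting at position -9 and GATAA at position 38 relative to the RefSeq start, and the Itga2b window held AGGAAG at positions -125 and -43. In the deposited tables Itga2b reaches to 102470122, so its start there differs from that of RefSeq and both matches lie inside the deposited span. Among the 8 members with a window, GATAA or its reverse complement was found in 4 and AGGAAG or its reverse complement in 5. Among all 32544 windows of the same length the shares were 25.3% and 35.1%. A match of letters is a description of the sequence and does not show that a factor binds there.

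Between Day 3 and Day 6 the RNA of Ppbp fell in both treatments, and by more than that of the other members tested. In P-F127 wounds Ppbp was at 33.8, 12.2 and 13.3 TPM at Day 3 and at 1.63, 1.98 and 2.79 TPM at Day 6. All libraries of Day 6 were below all libraries of Day 3, and replicate 1 was the highest at Day 3. The mean went from 19.7 ± 12.2 TPM to 2.13 ± 0.595 TPM (SD, n = 3), a log2 difference of -3.02 (SE 0.40) or 8.13-fold lower on the log2(TPM + 0.1) scale, with a limma adjusted p of 0.0193. In CAP wounds Ppbp was at 47.6, 54.0 and 25.6 TPM at Day 3 and at 0.751, 1.14 and 0.794 TPM at Day 6. Here too the days did not overlap. The mean went from 42.4 ± 14.9 TPM to 0.894 ± 0.212 TPM (SD, n = 3), a log2 difference of -5.37 (SE 0.31) or 41.3-fold lower, with a limma adjusted p of 0.0158. Of the 18202 genes tested between the days in CAP wounds, Ppbp was the only one with an adjusted p under 0.05 in limma.

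Pf4 went the same way over smaller distances. In P-F127 wounds it was at 396, 234 and 338 TPM at Day 3 and at 133, 191 and 165 TPM at Day 6. In CAP wounds it was at 439, 438 and 510 TPM at Day 3 and at 83.1, 72.9 and 131 TPM at Day 6. In neither treatment did the days overlap. The log2 difference in P-F127 wounds was -0.97 (SE 0.21), under the 2-fold needed for a call, with limma adjusted p = 0.0726. In CAP wounds Pf4 fell by 2.32 on the log2 scale (SE 0.22), which is 4.98-fold, with limma adjusted p = 0.0783 (0.00654 to 0.52 over 14 alternatives).

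The study set its cut-offs of p under 0.05 and 2-fold on results of DESeq tools. Here a gene was called at an unadjusted limma p under 0.05 with a change of at least 2-fold. By this rule 2 of the 5 members tested were called between the days in P-F127 wounds, Ppbp lower and Treml1 higher, against 3.75% of all 18368 genes tested (2.13% higher and 1.61% lower, and 2.29% with an adjusted p under 0.05). In CAP wounds 2 of 5 were called, Ppbp and Pf4, both lower, against 2.79% of all genes tested (1.27% higher and 1.52% lower, and 0.00549% with an adjusted p under 0.05). The count with an adjusted p under 0.05 in P-F127 wounds, 420 genes, was 83 without P-F127 Day 3 replicate 2, 1 without P-F127 Day 3 replicate 3, 212 and 275 without P-F127 Day 6 replicates 1 and 2, 89 without P-F127 Day 6 replicate 3 and 0 in a joint fit of all 12 libraries by limma. Groups that did not overlap were found for 3 of the 5 members in P-F127 wounds and 2 of 5 in CAP wounds, against 21.4% and 17.7% of all genes. The adjusted p of Ppbp ranged from 0.0132 to 0.0790 over the 14 alternatives in P-F127 wounds and from 7.39e-04 to 0.166 in CAP wounds. Without replicate 2 of CAP Day 6, the log2 difference in CAP wounds was -5.54 for Ppbp, with an adjusted p of 0.103, and -2.14 for Pf4. The exact permutation test of 3 libraries against 3, 2-sided, gave p = 0.1 for Ppbp and for Pf4 in both treatments, the smallest p that this design allows.

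The ratio of Ppbp to Pf4 within a library, a quantity chosen after the values were seen, moved as well. It was 5.88% ± 2.37 in P-F127 Day 3 and 9.40% ± 3.86 in CAP Day 3, and 1.32% ± 0.337 in P-F127 Day 6 and 1.02% ± 0.487 in CAP Day 6 (SD, n = 3). At Day 3 it lay between 3.93% and 12.3% and at Day 6 between 0.607% and 1.69%, without overlap. The log2 ratio changed between the days by -2.05 in P-F127 wounds and by -3.05 in CAP wounds, each with p = 0.1 in the exact permutation test and 0.25 after adjustment over 10 tests of ratios. The RNA of the 2 chemokines thus did not keep one proportion from Day 3 to Day 6. The change in CAP wounds was -3.39 without replicate 2 of CAP Day 6. The CAP and P-F127 groups overlapped in this ratio at each day (exact permutation p = 0.3 at Day 3 and 0.4 at Day 6).

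Capsaicin was set against the gel alone at each day. At Day 3 Ppbp was called higher in CAP, with a log2 difference of 1.19 (SE 0.45), or 2.28-fold, although P-F127 replicate 1 (33.8 TPM) lay above CAP replicate 3 (25.6 TPM). The limma p was 0.0328, the adjusted p 0.727 and the exact permutation p 0.2. For Pf4 all CAP libraries, from 438 to 510 TPM, were above all P-F127 libraries, from 234 to 396 TPM, with a log2 difference of 0.55 (SE 0.20) that did not reach 2-fold (limma p = 0.0286, adjusted p = 0.713, exact permutation p = 0.1). At Day 6 the order was turned around. Ppbp was called lower in CAP, with a log2 difference of -1.15 (SE 0.30), or 2.22-fold lower, and no overlap between the groups (limma p = 0.00680, adjusted p = 0.208, exact permutation p = 0.1). For Pf4 all CAP libraries, up to 131 TPM, were below all P-F127 libraries, from 133 TPM up, with CAP replicate 3 and P-F127 replicate 1 almost touching. Its log2 difference was -0.80 (SE 0.24), short of 2-fold (limma p = 0.0121, adjusted p = 0.212, exact permutation p = 0.1).

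For Ppbp the levels of the groups were therefore ordered CAP Day 3, P-F127 Day 3, P-F127 Day 6 and CAP Day 6 from high to low, and the same order held for Pf4. The neighbours CAP Day 3 and P-F127 Day 3 overlapped for Ppbp and no neighbours overlapped for Pf4. The call of Ppbp at Day 3 was lost without P-F127 replicate 2 (log2 difference 0.93), P-F127 replicate 3 (0.99), CAP replicate 1 (1.07) or CAP replicate 2 (0.98). At Day 6 it was lost without P-F127 replicate 3 (-0.95), with quantile normalization (-0.99) and with a pseudocount of 1 TPM (-0.71). Without replicate 2 of CAP Day 6, the log2 difference at Day 6 was -1.32 for Ppbp and -0.63 for Pf4, and without replicate 3 Pf4 passed the threshold at -1.05.

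In all, 2 of the 5 members tested at Day 3 were called, Ppbp and Treml1, both higher in CAP, against 1.58% of 18330 genes tested (0.426% higher and 1.16% lower, 6.6% with an unadjusted and 0.0164% with an adjusted p under 0.05). The 78 genes called higher were 26.9% of the 290 calls, and with quantile normalization 38.7% of the calls were higher. At Day 6, 1 of 5 was called, Ppbp lower, against 3.8% of 18323 genes (1.46% higher and 2.34% lower). Higher calls made up 38.5% of the calls at Day 6 as deposited, 58.2% after median-ratio scaling and 62.5% after quantile normalization. The median log2 difference of all genes at Day 6 was -0.12 as deposited and -0.01 after median-ratio scaling. Relative to that median, Ppbp and Pf4 were still lower in CAP at Day 6 under each scaling. Groups did not overlap for 3 of the 5 members at Day 3 and for 2 of 5 at Day 6, beside 11.6% and 26% of all genes. At Day 6 no gene had an adjusted p under 0.05 in limma, while 3517, or 19.2%, had an unadjusted p under 0.05. Without replicate 3 of CAP Day 6, 1430 genes had an adjusted p under 0.05, and without any other single library none did by limma.

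The CAP effects of the days were then compared with each other. The effect at Day 6 minus that at Day 3 was -2.34 for Ppbp (SE 0.56, 95% interval -3.59 to -1.10) and -1.35 for Pf4 (SE 0.34, 95% interval -2.09 to -0.61) on the log2 scale. For Treml1 it was -2.11 (SE 0.66, 95% interval -3.57 to -0.65) and for Gp1bb 2.16 (SE 0.66, 95% interval 0.70 to 3.62). These are 4 of the 6 members tested, against 4.6% of 19046 genes called (2.07% with a positive and 2.54% with a negative difference). Gp1bb passed the filter of this test only through CAP Day 6, where it was at 0.798, 0.763 and 0.326 TPM. The same values make its difference, so its call lends no support. The adjusted p was 0.423 for all 4, no gene of the table had an adjusted p under 0.05 in limma, and 2179 genes had an unadjusted p under 0.05. The 4 calls were kept in each fit that left out 1 library. Without replicate 2 of CAP Day 6 the differences were -2.51 for Ppbp, -1.18 for Pf4, -1.90 for Treml1 and 2.0 for Gp1bb. Since the effects at both days and the changes between days rest on the same 12 libraries, these comparisons are not independent of each other.

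**Figure D2:**
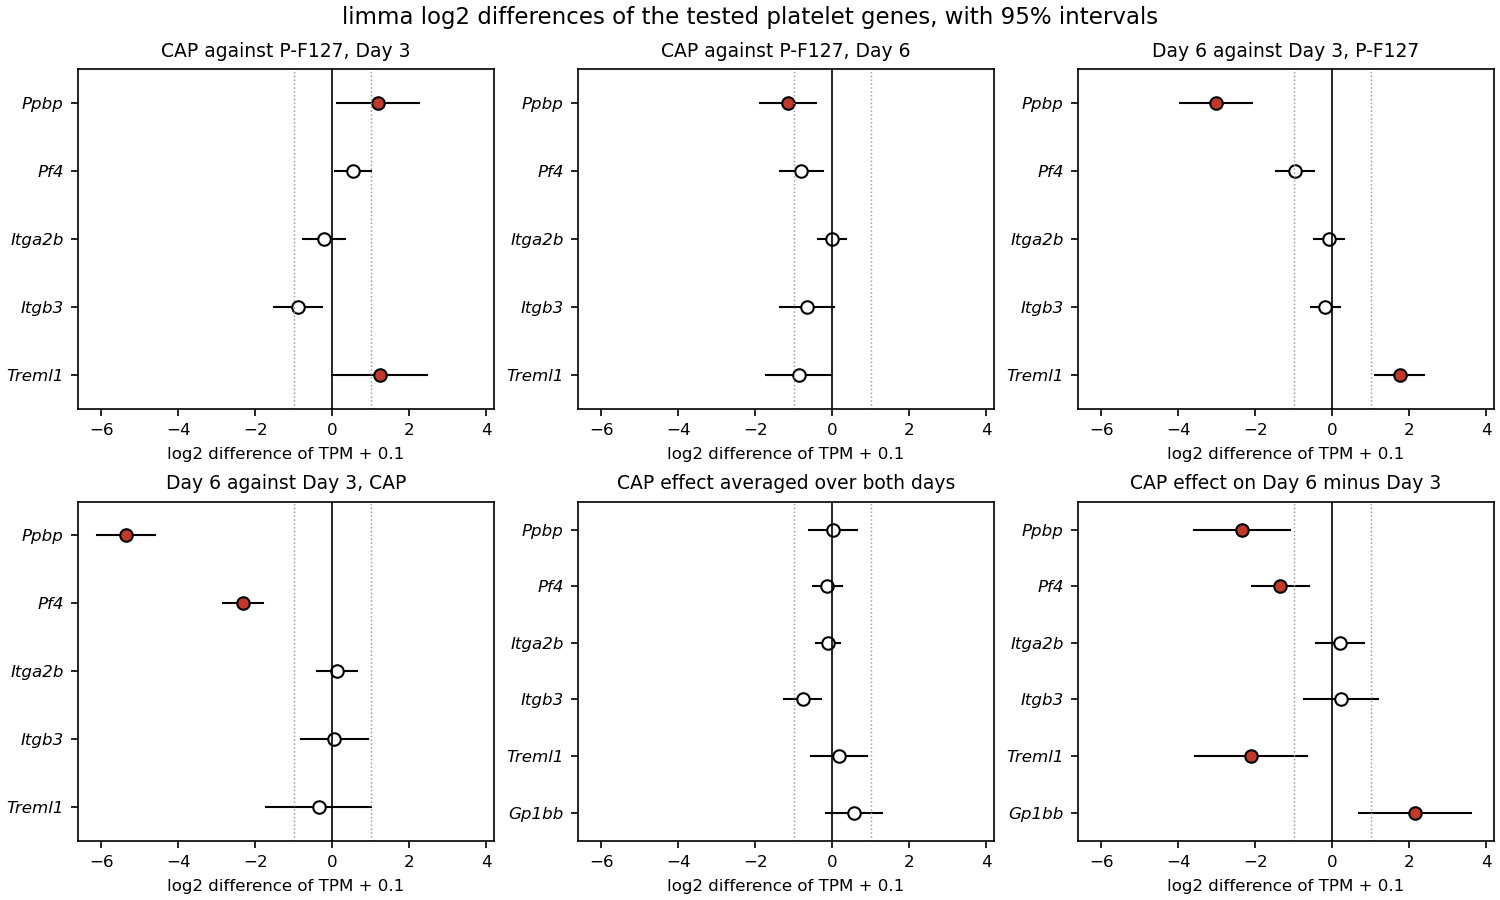
limma log2 differences of TPM + 0.1 (x axis) with 95% intervals for the members that passed the filter, in 1 panel for each of the 6 comparisons. Filled points are called (unadjusted p under 0.05 and at least 2-fold, dotted lines at -1 and 1), and open points are not. Ppbp lies at -3.02 and -5.37 between the days and on opposite sides of 0 for CAP at Day 3 and Day 6, while Itga2b lies near 0 throughout.

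The subunits of integrin αIIbβ3 behaved differently from the chemokines and from each other. Itga2b encodes the αIIb subunit, a marker of the megakaryocyte lineage. Which cells carried its RNA here was not tested. It was at 7.93, 6.84 and 10.4 TPM in P-F127 Day 3 and at 8.29, 5.32 and 8.09 TPM in CAP Day 3. At Day 6 it was at 7.86, 7.59 and 7.88 TPM in P-F127 and at 8.80, 6.57 and 8.06 TPM in CAP. All groups overlapped. No change passed the test, and the 95% intervals of its log2 difference were -0.77 to 0.33 for CAP at Day 3, -0.37 to 0.36 for CAP at Day 6, -0.48 to 0.31 between the days in P-F127 and -0.40 to 0.65 in CAP. A change of 2-fold lay outside each of these intervals. The sign of its small difference at Day 6, -0.00 as deposited, turned to 0.11 both after median-ratio scaling and without replicate 2 of CAP Day 6, and to 0.16 after quantile normalization.

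Itgb3 encodes the β3 subunit. It was at 20.3, 15.1 and 20.2 TPM in P-F127 Day 3 and at 9.84, 6.91 and 14.1 TPM in CAP Day 3, so that all CAP libraries were below all P-F127 libraries. At Day 6 it was at 19.0, 14.0 and 16.0 TPM in P-F127 and at 10.1, 6.83 and 15.6 TPM in CAP, where CAP replicate 3 lay within the range of the gel alone. The log2 difference was -0.89 at Day 3 (SE 0.27, limma p = 0.0129, adjusted p = 0.624, exact permutation p = 0.1) and -0.66 at Day 6 (SE 0.29, limma p = 0.0608, adjusted p = 0.277, exact permutation p = 0.2). Averaged over both days it was -0.77 (SE 0.22, 95% interval -1.25 to -0.30), or 1.71-fold lower, with an adjusted p of 0.150 in limma. The exact permutation test within days gave p = 0.015, where 0.005 is the smallest it allows. None of these reached the 2-fold threshold, and for the averaged effect 0 of 6 members were called beside 1.51% of 19046 genes (18.2% had an unadjusted p under 0.05). Of those calls 21.5% were higher in CAP, a share of 32.0% after median-ratio scaling, 41.2% after quantile normalization and 9.09% at a pseudocount of 1 TPM. At Day 3 the call was made without P-F127 replicate 2 (-1.03) or CAP replicate 3 (-1.15). Without replicate 2 of CAP Day 6 the value was -0.37 at Day 6 and -0.63 averaged over the days.

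The difference between the CAP effects of the days was 0.23 for Itgb3, with a 95% interval of -0.72 to 1.19, and between the days the gene differed by -0.18 in P-F127 and 0.05 in CAP. Within a library Itgb3 was 2.24 ± 0.309 times Itga2b in P-F127 Day 3 and 1.41 ± 0.298 times in CAP Day 3, and 2.1 ± 0.288 times in P-F127 Day 6 and 1.37 ± 0.489 times in CAP Day 6 (SD, n = 3). This ratio, also chosen after the values were seen, was lower in CAP at Day 3 without overlap. Averaged over both days its log2 difference was -0.66 with p = 0.01 in the exact permutation test within days and 0.1 after adjustment over 10 tests, and it was -0.58 without replicate 2 of CAP Day 6. Itgav, which encodes the αV subunit that pairs with β3 in other cells, had log2 differences for CAP of -0.08 at Day 3 (95% interval -0.44 to 0.29) and -0.59 at Day 6 (adjusted p = 0.226 in limma), neither of them called. Of the genes of fibrinogen, the ligand of αIIbβ3, Fga and Fgb were listed at 0 in all 12 libraries and Fgg in 11, with 0.0509 TPM in P-F127 Day 6 replicate 1.

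Treml1 rose in P-F127 wounds between the days. It was at 0.482, 0.688 and 0.478 TPM at Day 3 and at 2.09, 1.80 and 2.37 TPM at Day 6, with no overlap. The log2 difference was 1.76 (SE 0.27), or 3.38-fold, with limma adjusted p = 0.0280 (0.0213 to 0.185 over 14 alternatives), and with a pseudocount of 1 TPM it was 0.99. In CAP wounds the gene was at 0.711, 1.23 and 3.13 TPM at Day 3 and at 0.857, 0.786 and 1.88 TPM at Day 6. These groups overlapped widely, and the log2 difference of -0.35 (SE 0.58) did not pass the test. Treml1 and Ppbp thus changed in opposite directions between the days in P-F127 wounds although both encode α-granule proteins.

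For CAP against the gel, Treml1 was called higher at Day 3 with a log2 difference of 1.24 (SE 0.52, limma p = 0.0496, adjusted p = 0.755, exact permutation p = 0.1), with all CAP libraries above all P-F127 libraries. CAP replicate 3, at 3.13 TPM, was the highest of the 12 libraries, and without it the value was 0.69. The call was also lost without P-F127 replicate 1 (1.17), P-F127 replicate 2 (1.39), P-F127 replicate 3 (1.16) or CAP replicate 2 (1.33), with a pseudocount of 1 TPM (0.70) and without the filter on low values. At Day 6 the log2 difference was -0.87 (SE 0.36, limma p = 0.0463, adjusted p = 0.254, exact permutation p = 0.2), under 2-fold, with CAP replicate 3 inside the range of the gel alone. Without that library it was -1.24 and was called, and without replicate 2 of the same group it was -0.66.

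The genes of the GPIb-IX complex were too low for firm statements. Gp1ba was at 0.175, 0.220 and 0.209 TPM in P-F127 Day 3, at 0.0638, 0.431 and 0.134 TPM in CAP Day 3, at 0.429, 0.155 and 0.313 TPM in P-F127 Day 6 and at 0.337, 0.243 and 0.314 TPM in CAP Day 6. Gp9 was listed at 0 in all 3 libraries of P-F127 Day 3, at 0.542, 0.13 and 0.296 TPM in CAP Day 3, at 0.715, 0.35 and 0.116 TPM in P-F127 Day 6 and at 0.434, 0 and 0.0941 TPM in CAP Day 6. Neither gene passed the filter of a mean of 0.3 TPM in any comparison. TPM keeps no depth, so how many reads lie behind such values is unknown and no fold is given against a group listed at 0. Gp6, the gene of GPVI, was listed at 0 in 8 libraries and reached 0.0473 TPM at most, in CAP Day 6 replicate 3.

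Gp1bb passed the filter only where all 12 libraries entered the fit, and there only through its values in CAP Day 6. It was at 0.395, 0.382 and 0.332 TPM in P-F127 Day 3 and at 0.220, 0.296 and 0.185 TPM in CAP Day 3, so that CAP was lower without overlap. At Day 6 it was at 0.0190, 0.155 and 0.248 TPM in P-F127 and at 0.798, 0.763 and 0.326 TPM in CAP, so that CAP was higher without overlap. Its called difference between the CAP effects of the days, 2.16, was 0.66 with a pseudocount of 1 TPM and then not called. The gene shares 1902 bases of its span at 18620317 to 18622403 on chromosome 16 with Septin5, which lies on the same strand at 101 to 251 TPM, and 1938 bases with Gm49601, at 31.9 to 54.3 TPM. Reads in the shared bases could be assigned to any of these genes, so the values of Gp1bb are uncertain.

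Other platelet genes were taken as 56 genes in 5 lists, drawn up with earlier results of these data known. At Day 3 none of the 48 that passed the filter was called for CAP, with 2 calls when the filter was removed. Their median log2 difference was -0.04, beside -0.05 for all genes tested. At Day 6, 9 of 48 were called, all lower in CAP, beside 3.8% of all genes (2.34% lower), with a median of -0.62 beside -0.12 for all genes. They were Ptgir (-1.38), the prostacyclin receptor, Thbs1 (-1.41), the α-granule matrix protein thrombospondin-1, Srgn (-1.67), the granule proteoglycan serglycin, F5 (-1.11), coagulation factor V, Selp (-1.11), P-selectin, Esam (-1.13) and Pear1 (-1.01), which are surface proteins also found on endothelium, Adra2a (-1.17), an adrenergic receptor, and Runx1 (-1.16), a transcription factor of megakaryocytes and other blood cells. The lowest adjusted p among them was 0.205, for Ptgir. With median-ratio scaling 5 were called and with quantile normalization 4. Replicate 2 of CAP Day 6 bore much of this count: without it 2 were called, F5 and Ptgir, and without replicate 3 of the same group 17 were. Without P-F127 Day 6 replicate 1 the count was 3, and without P-F127 Day 6 replicate 3 it was 5.

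Between the days in P-F127 wounds, 7 of 48 were called, all higher at Day 6, beside 3.75% of all genes (2.13% higher), with a median of 0.38 beside 0.00 for all genes. Adra2a rose by 1.96 on the log2 scale (adjusted p = 0.0132 in limma), Esam by 1.5 (0.0146), Tal1 by 1.35 (0.0473), F2rl3 by 1.30 (0.13), Vwf by 1.09 (0.0573), Mmrn1 by 1.07 (0.159) and Serpine2 by 1.07 (0.0146). Vwf and Mmrn1 encode von Willebrand factor and multimerin 1, which are stored in α-granules and also in endothelial cells, Tal1 encodes a factor of blood and endothelial development, and F2rl3 the thrombin receptor PAR4. Without P-F127 Day 3 replicate 1 the count was 11. In CAP wounds 2 of 51 were called, Thbs1 (-1.24) and Ptgir (-1.47), both lower at Day 6, beside 2.79% of all genes (1.52% lower). From so small a count nothing is read about the list. This count was 5 without replicate 3 of CAP Day 6, 1 (Ptgir) without any single library of CAP Day 3 or without CAP Day 6 replicate 1, and 2 (Adra2a higher and Ptgir lower) without CAP Day 6 replicate 2. Of the 48 tested between the days in P-F127 wounds, 0 were called lower by limma, and when the filter on low values was removed Cd226 and Gfi1b were called lower.

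The CAP effects of the days differed by the call for 5 of 51 other platelet genes, beside 4.6% of all genes. These were Thbs1 (-2.06), Srgn (-2.0), Ptgir (-1.62) and Adra2a (-1.18), with a negative difference like that of Ppbp and Pf4, and Gfi1b (2.29), a transcription factor of megakaryocytes and red cell precursors, which reached at most 1.14 TPM. Gfi1b passed the filter only through P-F127 Day 3, at 1.14, 0.406 and 1.02 TPM, so its call lends no support. The count was 3 without CAP Day 6 replicate 2, 17 without CAP Day 6 replicate 3, 10 without CAP Day 6 replicate 1, and 9 without P-F127 Day 3 replicate 1 or without CAP Day 3 replicate 1. For the effect averaged over both days, 0 of 51 were called by limma. Among the partners of the members, Cxcr2, which encodes the neutrophil receptor for the Ppbp product, lay between 17.7 and 64.2 TPM and was called in none of the 6 comparisons. Cxcr1 rose in P-F127 wounds between the days by 1.52 on the log2 scale (adjusted p = 0.223 in limma), from 0.514 to 2.57 TPM at Day 3 to 2.81 to 3.24 TPM at Day 6.

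**Figure D3:**
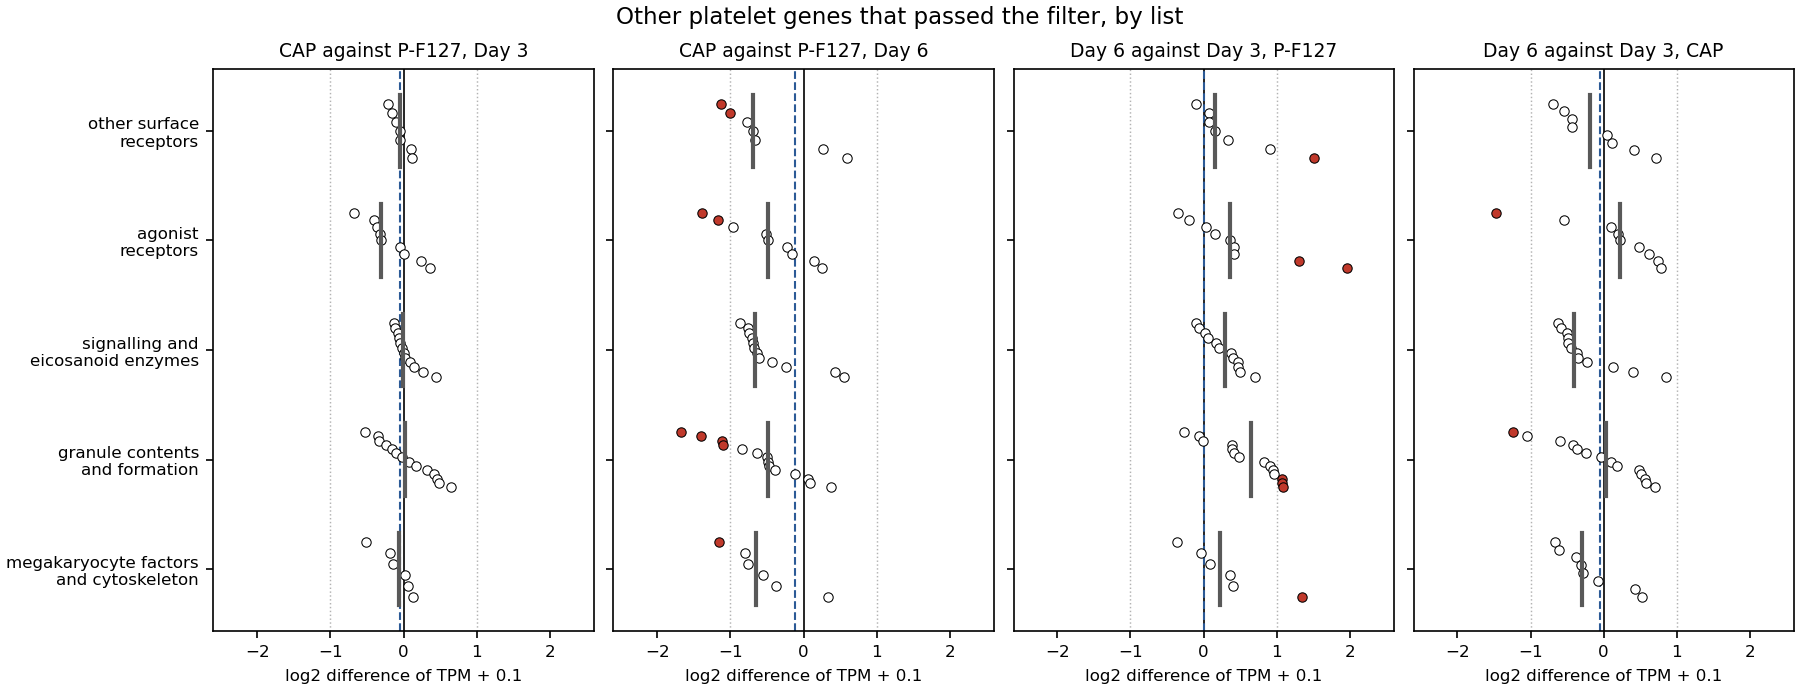
limma log2 differences of TPM + 0.1 (x axis) of the other platelet genes that passed the filter, 1 point per gene, in 5 lists (y axis) and 4 comparisons (panels). Filled points are called, thick grey bars are list medians and dashed lines the median of all genes tested. At Day 6 the CAP points lie mostly to the left of 0, with 9 called lower, and between the days in P-F127 mostly to the right, with 7 called higher.

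Markers of some other cells also differed between these groups. Erythroid markers, read through 9 genes of a list of 10, summed to between 516 and 755 TPM in P-F127 Day 3, 2359 and 2805 TPM in CAP Day 3, 2117 and 5627 TPM in P-F127 Day 6, and 719 and 3189 TPM in CAP Day 6. At Day 3, 5 of the 7 tested were called higher in CAP, beside 0.426% of all genes. Hba-a1 (α-globin) was at a log2 difference of 2.1, Hbb-bs (β-globin) at 2.11 and Alas2, an enzyme of haem synthesis in red cells, at 2.18. The only 3 genes with an adjusted p under 0.05 at Day 3 were globin genes. The red cell factor Klf1 was between 0 and 0.504 TPM. Between the days in P-F127 wounds 6 of 6 erythroid genes tested were called higher, beside 2.13% of all genes, with Hba-a1 at a log2 difference of 2.39. Of the 6 tested in the other comparisons, 0 were called by limma for CAP at Day 6, 1 was called higher between the days in CAP wounds, and 5 were called with a negative difference between the CAP effects of the days, Hba-a1 at -3.22 (-2.72 without replicate 2 of CAP Day 6). With erythroid and mitochondrial genes taken out of the TPM total, the log2 differences of Ppbp between the days were -3.02 in P-F127 and -5.37 in CAP wounds. That step only rescales each library. The part of blood in the wound in these levels was not tested.

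Endothelial markers, 9 genes of which none was at 0 in any library, summed to between 123 and 160 TPM in P-F127 Day 3, 106 and 178 TPM in CAP Day 3, 312 and 420 TPM in P-F127 Day 6, and 96.7 and 265 TPM in CAP Day 6. Between the days in P-F127 wounds all 9 had positive log2 differences and 7 were called higher, Pecam1 at 1.41, beside 3.75% of all genes (2.13% higher). At Day 6, 4 of 9 were called lower in CAP, beside 3.8% of all genes (2.34% lower), Pecam1 at -1.0. Without replicate 2 of CAP Day 6, whose endothelial sum was the 96.7 TPM, 0 of 9 were called by limma and Pecam1 was at -0.50. Esam, which endothelial cells also use, was called in both of these comparisons, Vwf only between the days in P-F127 wounds, and Selp and Pear1 only for CAP at Day 6. Neutrophil markers summed to between 1754 and 6035 TPM in P-F127 Day 3, 1808 and 4785 TPM in CAP Day 3, 1707 and 3231 TPM in P-F127 Day 6 and 260 and 2642 TPM in CAP Day 6. Between the days in CAP wounds 2 of the 5 tested were called lower, among them S100a8 at -1.93, beside 2.79% of all genes (1.52% lower). Only Retnlg of the 5 was called, with S100a8 at -1.09, when replicate 2 of CAP Day 6 was left out. Macrophage markers included Adgre1 (F4/80), which lay between 69.7 and 185 TPM and was called in none of the comparisons. Among the 12 monocyte and macrophage genes 2 were called lower in CAP at Day 3, 1 lower in CAP at Day 6 and 1 lower between the days in P-F127, beside 1.16%, 2.34% and 1.61% of all genes. In the same list 2 were called lower for the averaged effect (1.19% of all genes), and 1 with a positive and 1 with a negative difference between the CAP effects of the days (2.07% and 2.54%). With replicate 2 of CAP Day 6 left out these were 0 at Day 6 in limma, 1 lower for the averaged effect and 1 positive for the difference, and 1 was called higher between the days in CAP wounds. Of the 6 skeletal muscle genes, 1 was called lower between the days in P-F127 (1.61% of all genes) and in CAP (1.52%), in CAP at Day 6 (2.34%) and for the averaged effect (1.19%). Without replicate 2 of CAP Day 6 the call between the days in CAP wounds was lost. The part of any of these cells in the levels of the platelet genes was not tested.

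**Figure D4:**
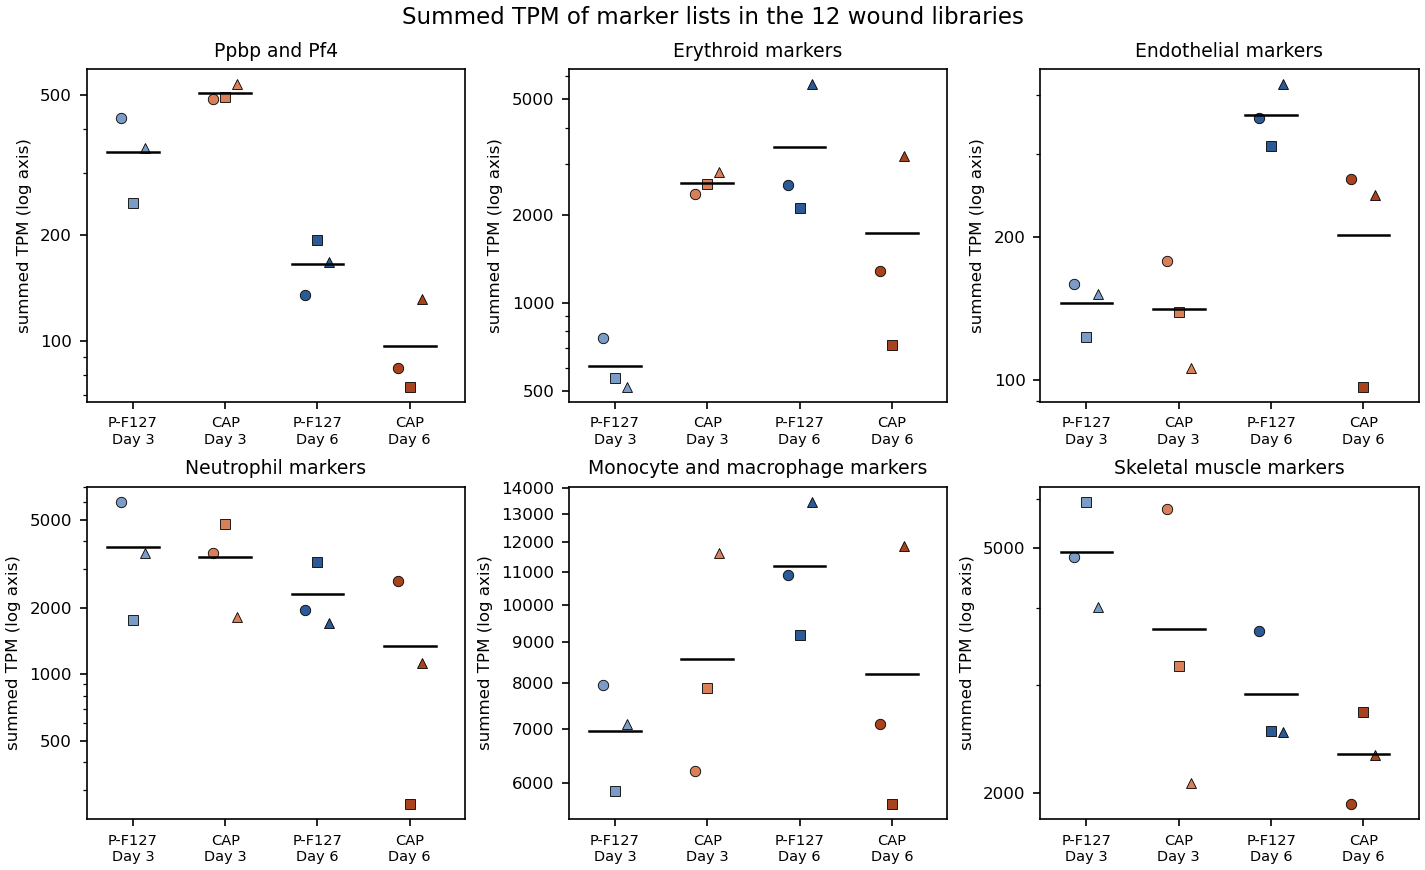
Summed TPM (log axes) of Ppbp and Pf4 and of 5 lists of markers of other cells in each library, by group; circles, squares and triangles are replicates 1, 2 and 3, and lines are group means. The chemokine sum falls from 247 to 535 TPM at Day 3 to 74.0 to 193 TPM at Day 6, while the erythroid and endothelial sums rise between the days in P-F127.

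The likeness of each profile to those of 16168 genes with a mean of 1 TPM or more was measured as the root mean square difference of standardised log2 values over the 12 libraries. For Ppbp the nearest gene was Arf1 at 0.332 SD units, a small GTPase of vesicle transport, and Pf4 followed at 0.345, then Ndufa12, Gml and Sprr3. Arf1 had group means between 493 and 584 TPM, so that the shape of its profile was near that of Ppbp over a far smaller range. For Pf4 the nearest were Ywhag at 0.269, Arpc2 and Esd, with Ppbp in place 4. For Itga2b they were Nbea at 0.475, Ccdc69, Gm42715, Fam189b and Gm7936, and its partner Itgb3 was in place 244 at 0.861. Seen from Ppbp, Itgb3 stood in place 9333, Itga2b in place 11308 and Treml1 in place 12736.

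The other chemokine genes beside Ppbp and Pf4 also changed. Cxcl5, which encodes a neutrophil attractant and lies at 90759360 to 90761624 on chromosome 5, was at 38.8, 61.0 and 41.4 TPM in CAP Day 3 and at 10.2, 7.95 and 8.52 TPM in CAP Day 6. It fell by 2.37 on the log2 scale between the days in CAP wounds (adjusted p = 0.0783 in limma) and was called lower in CAP at Day 6, at -1.89. Both were called without replicate 2 of CAP Day 6 too, at -2.30 and -1.82. In P-F127 wounds its difference between the days was -0.58 (SE 0.62), with the groups overlapping. Cxcl3, on the far side of Pf4, was called higher at Day 6 in P-F127 wounds, at 1.46, and was at -1.21 (SE 0.69) in CAP wounds, which is no call. Cxcl15, the next gene, was listed at 0 in all 12 libraries. The difference between the CAP effects of the days was called for Cxcl5, at -1.79, and for Cxcl3, at -2.67, each with an adjusted p of 0.423 in limma. It was -1.71 for Cxcl5, no longer a call, and -1.98 for Cxcl3, still a call, without replicate 2 of CAP Day 6.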

How the data were processed

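RNA of 12 wound libraries was sequenced by the authors as paired-end reads from SureSelect XT HS2 mRNA libraries. Reads were converted with bcl2fastq and trimmed with Trimmomatic 0.36, the build was mm10 and expression was estimated with StringTie, per the labels and the study's methods. The sources used here name no aligner and no annotation release. The deposited tables hold TPM per gene, where 0.0001 stands for 0 and was set to 0. TPM carries no depth, so counting error could not be given and the precision rests on 3 libraries per group.

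Values were tested as log2(TPM + 0.1) with limma 3.58.1 (trend) in R 4.3.3. Such differences understate the change of low genes. A comparison of 2 groups used their 6 libraries and the genes whose mean reached 0.3 TPM in each group. Genes whose mean over all 12 libraries reached it were used for the averaged CAP effect and for the difference between the days. Adjusted p values (Benjamini-Hochberg) cover every gene of a comparison. Exact permutation tests were 2-sided. A gene counted as called at an unadjusted p under 0.05 and 2-fold, the study's cut-offs, applied here to limma instead of DESeq tools. The fit was tested on simulated data. Python 3.11.15 with pandas 2.3.3 and matplotlib 3.10.9 did the rest. Gene positions are those of the tables, and 54863 genes matched GENCODE M21. Promoter windows came from RefSeq on GRCm38.p6 for 8 of 9 members. No window was found for Itgb3.

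The 9 members and all lists were chosen with earlier results of these data known. All 9 members were named, and of the other platelet lists each gene called in any of the 6 comparisons plus Gp5, Clec1b, Vwf, Selp and Cxcr2. Some preset genes are not reported here. Of the lists of other cells, the summed TPM, the calls and 6 preset genes were used. Mpig6b, Itgav, Fga, Fgb, Fgg, Cd226, Retnlg, Klf1, Krt10, Cxcl5, Cxcl3 and Cxcl15 fall outside this rule and were named after their values were seen. Alternatives were pseudocounts of 1 and 0.01 TPM, no filter, median-ratio scaling, quantile normalization, TPM without erythroid and mitochondrial genes, a replicate block, a joint fit and leaving out each library. For the other platelet genes these alternatives, and for lists of other cells, Krt10, neighbouring chemokines and ratios the fit without CAP Day 6 replicate 2, were added after seeing the data.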

Additional observations from a re-analysis of the deposited data

Results flagged for a closer look

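The CAP effect differed between the days for 4 of the 6 members tested, by the test of the difference itself, beside 4.6% of all genes. The same difference was called for the neighbouring chemokine genes Cxcl5 and Cxcl3 and for 5 of 6 erythroid genes tested. On the log2(TPM + 0.1) scale the effect at Day 6 minus that at Day 3 was -2.34 for Ppbp, -1.35 for Pf4, -2.11 for Treml1 and 2.16 for Gp1bb, each with a limma p under 0.05 and an adjusted p of 0.423. For Ppbp, Pf4 and Treml1 the effect of CAP was positive at Day 3 and negative at Day 6. For Gp1bb, whose values are uncertain because of overlapping genes, it was negative at Day 3 and positive at Day 6, without overlap of the groups at either day. Gp1bb passed the filter only through its values in CAP Day 6, so its call lends no support. None of the 4 holds after adjustment over the 19046 genes tested.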

How the results depend on the processing

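The direction of a called member was kept in every alternative run. With a pseudocount of 1 TPM the calls over all genes were 154 at Day 3, 385 at Day 6, 405 between the days in P-F127, 299 in CAP, 77 for the averaged effect and 574 for the difference between the CAP effects (290, 697, 688, 507, 288 and 877 as reported), members called were 1, 0 and 1 in the first 3, and other platelet genes called were 5 at Day 6 and 4 between the days in P-F127. Without the filter the calls over all genes were 568 at Day 3, 1150 between the days in P-F127 and 835 in CAP, and other platelet genes called at Day 3 were 2. Members called were then Ppbp and Gp9 at Day 3 and Ppbp and Gp1bb at Day 6. Between the days Gp9 was added to the calls in P-F127 and Gp1bb to those in CAP. Gp9, listed at 0 in all of P-F127 Day 3, was also added for the difference between the CAP effects. Members called at Day 6 were 0 with quantile normalization. Other platelet genes called at Day 6 were 5 after median-ratio scaling and 4 after quantile normalization.

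Leaving out 1 library, the calls over all genes were 204 to 510 at Day 3 (510 without CAP Day 3 replicate 1), 311 to 1483 at Day 6 (311 without CAP Day 6 replicate 2, 1483 without replicate 3), 382 to 886 between the days in CAP (886 without CAP Day 6 replicate 3) and 543 to 1636 for the difference between the CAP effects (without CAP Day 6 replicates 2 and 3 in turn). Members called were 0 to 2 at Day 3 (0 without P-F127 Day 3 replicate 3 or CAP Day 3 replicate 2) and 0 to 3 at Day 6 (0 without P-F127 Day 6 replicate 3, 3 without CAP Day 6 replicate 3). Other platelet genes called were 0 to 1 at Day 3, 2 to 17 at Day 6, 6 to 11 between the days in P-F127, 1 to 5 in CAP, 0 to 1 for the averaged effect and 3 to 17 for the difference.

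Signs turned only for log2 differences that were not called. For Itga2b at Day 6 it was 0.11 after median-ratio scaling, 0.16 after quantile normalization and -0.095 to 0.11 leaving out 1 library. For Itga2b the ranges leaving out 1 library were -0.22 to 0.078 between the days in P-F127 and -0.078 to 0.24 in CAP, and its averaged effect was 0.019 with quantile normalization. The ranges were -0.25 to 0.34 for Itgb3 and -0.80 to 0.19 for Treml1 between the days in CAP, -0.067 to 0.52 for Itgb3 in the difference between the CAP effects, and -0.11 to 0.25 for Ppbp and -0.091 to 0.41 for Treml1 in the averaged effect, where Ppbp was -0.018 with a pseudocount of 0.01 TPM. The cause of these changes was not tested.

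Whether replicate numbers pair the libraries is not known. The correlation of deviations from the group means was between -0.107 and 0.239 (median 0.0314) for the 18 pairs with the same number. For the others it was between -0.262 and 0.182 (median -0.0220). These ranges overlap, so they cannot decide the question. With the replicate number as a block, members called at Day 3 were 1, Ppbp, and the block changed no other member's call. For the averaged effect it gave 258 genes with an adjusted p under 0.05 instead of 0, among them Itgb3 at 0.0357, and between the days in P-F127 the adjusted p of Treml1 was 0.0651. Over the 19 alternatives the adjusted p of the averaged Itgb3 effect ranged from 0.0357 to 0.33, and that of Treml1 over 14 from 0.0213 to 0.185.

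TPM holds no read depth, so values under 0.3 TPM cannot be given a counting error and 3 libraries per group limit the rest.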
